A study of Mus musculus with 16 samples.

Results

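Glucocorticoid receptor targets and metallothioneins were examined in skeletal muscle of mice as a panel of 10 genes taken by name from the deposited mRNA table, Fkbp5, Tsc22d3, Klf9, Sgk1, Zbtb16, Cebpb, Cebpd, Cdkn1a, Mt1, and Mt2. The table holds 23235 gene names, and the counts of all transcripts that carry a gene's name were summed. All 10 genes passed the filter on low counts, which left 15364 genes for testing.

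The 16 mice were males of the strain labelled C57BL/6, 6 weeks old at the start, with 4 mice in each of 4 groups. The control group received a normal diet, and the HFD group received for 8 weeks a high-fat feed labelled as 60% fat. The HFD + RSV group was given resveratrol (spelled reveratrol in the labels), a plant polyphenol, for 6 weeks after the feed had induced insulin resistance, and the HFD + MET group was given metformin, a drug that lowers blood glucose, for the same 6 weeks. Each mouse gave 1 library from 1 muscle sample, so the spread within a group is that between mice, and the sources used here do not say which muscle was taken. The methods describe an insulin injection shortly before anaesthesia for some mice of every group they cover, and whether the sequenced mice were among them is not given. All 4 HFD mice carry the same leading number in their labels, which no mouse of another group carries, so whatever that number marks cannot be told apart from the group.

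Glucocorticoids are steroid hormones of the adrenal cortex that enter cells and bind the glucocorticoid receptor, which then moves to the nucleus and switches genes on or off at short DNA sequences called glucocorticoid response elements. In muscle these hormones favour the breakdown of protein and oppose the action of insulin. Metallothioneins are small cysteine-rich proteins that hold zinc and copper, and their genes are induced both by glucocorticoids and by metal ions, the latter through the zinc-sensing factor Mtf1. Most of the 10 genes also answer to other signals, such as cytokines, fasting, or DNA damage, so their levels are not a measure of the hormone alone.

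The mRNA table held 17625909 to 29761026 counts per mouse, and no libraries were identical. Skeletal muscle marker genes summed to between 60220.4 and 115353 CPM (counts scaled to library size) in the 16 mice. An extraction note in the labels speaks of retinas, but the 6 retina markers in the table summed to only 4.78 to 6.85 CPM, and the photoreceptor gene Gnat1 was at 0 in 13 mice. The sum of 8 white adipocyte markers ranged from 2184 to 7082 CPM in control mice, from 625 to 1669 in HFD mice, from 1168 to 1904 in HFD + RSV mice, and from 748 to 6269 in HFD + MET mice. The control and HFD groups did not overlap in this sum, with the HFD group lower, a pattern that 9.44% of all single genes showed. Lpl and Fabp4 were the largest parts of the sum, and none of its 8 genes passed singly for HFD versus control, as given below. Replicate 3 of the HFD + MET group stood apart, with 6269 CPM of white adipocyte markers against 748, 991, and 2412 in the other mice of its group, and with the lowest skeletal muscle sum of all. In these whole-tissue samples, fewer cells of a type and less RNA per cell cannot be told apart.

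The question of the first comparison was whether the high-fat diet moved these genes. In the HFD group, 6 of the 10 genes had fitted levels 1.52-fold (Cebpb) to 4.42-fold (Mt1) below those of the control group, whereas Tsc22d3, Klf9, Sgk1, and Zbtb16 lay within 1.25-fold. None of the 10 passed a Benjamini-Hochberg adjusted P below 0.05 in the edgeR quasi-likelihood fit of all 16 mice, in which 2.43% of all genes passed. The count of all genes that passed was 374, and with 1 mouse left out it ran from 16 (without control replicate 2) to 1588 (without HFD + MET replicate 3). At an unadjusted P below 0.05, 7 of the 10 passed, all of them lower in the HFD group, against 12.5% of all genes lower at the same threshold. The highest HFD mouse lay below the lowest control mouse for Fkbp5, Cebpd, Mt1, and Cdkn1a, and 9.44% of all genes showed that pattern in that direction.

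**Figure D1:**
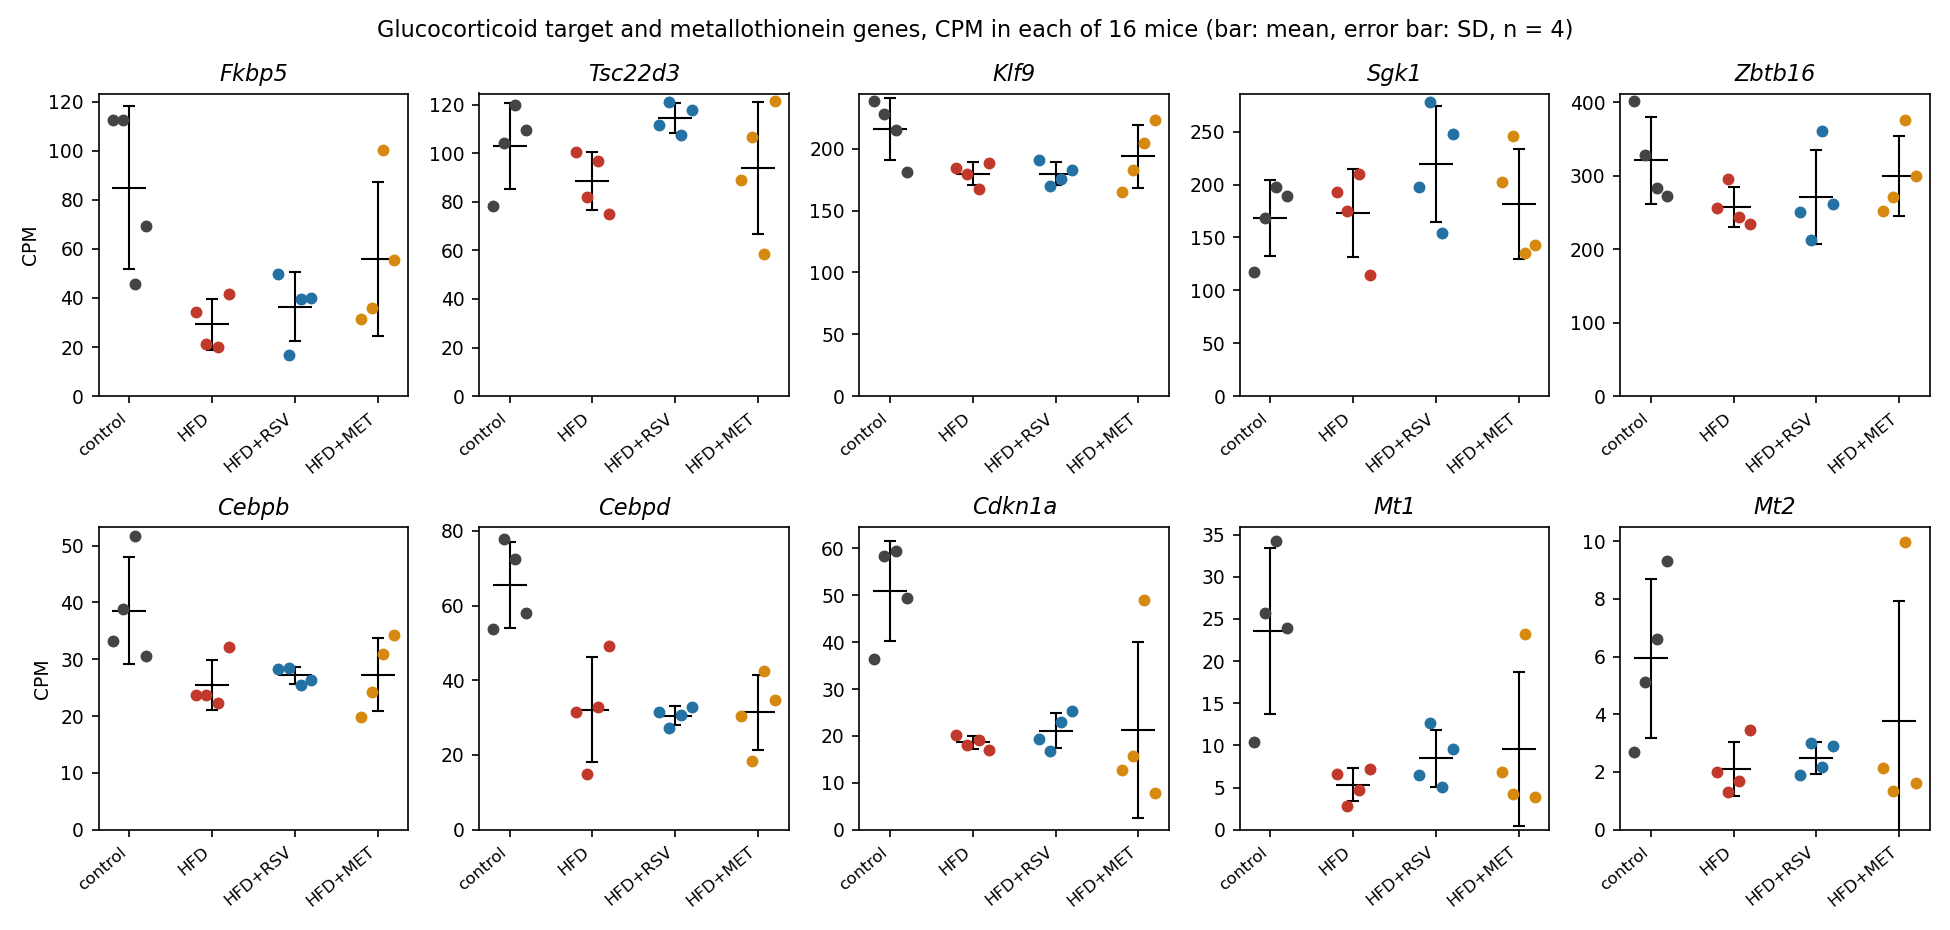
Each panel plots 1 gene, with CPM on a linear axis from 0 and 1 point per mouse (horizontal bar, mean; error bar, SD, n = 4, clipped at 0). Fkbp5, Cebpd, Cdkn1a, and Mt1 separate the control group from the HFD group, and replicate 3 of the HFD + MET group is the highest of its group in the Fkbp5, Cdkn1a, Mt1, and Mt2 panels.

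Fkbp5 encodes a co-chaperone that sits on the glucocorticoid receptor, lowers its affinity for hormone, and is itself strongly induced by the receptor. It lies on the minus strand of chromosome 17 at 28399094 to 28517527 (GRCm38, GENCODE M21). The level of Fkbp5 was 112, 113, 45.5, and 69.3 CPM in the 4 control mice and 34.3, 21.1, 19.9, and 41.6 CPM in the 4 HFD mice. The groups did not overlap, although control replicate 3 came close to the highest HFD mouse, replicate 4. The fitted difference was a log2 fold change (log2FC) of -1.54 with an SE of 0.427 (adjusted P = 0.0659). The exact permutation test of 4 against 4 mice gave its smallest possible two-sided P of 0.0286, as it does for any 2 groups that do not overlap.

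Cebpb and Cebpd encode CCAAT/enhancer-binding proteins, transcription factors that glucocorticoids and inflammatory cytokines induce and that take part in adipocyte formation and muscle wasting. Cebpd was at 53.7, 77.9, 72.5, and 58.1 CPM in the control mice and at 31.4, 14.9, 33.0, and 49.1 CPM in the HFD mice. The groups did not overlap, and the spread of the HFD mice reached up to the control range. The log2FC of Cebpd was -1.03 with an SE of 0.291 (adjusted P = 0.0676). Cebpb was at 33.2, 38.8, 51.7, and 30.5 CPM in the control mice and at 23.7, 23.7, 22.3, and 32.1 CPM in the HFD mice. These groups overlapped, since HFD replicate 4 exceeded control replicate 4. The log2FC of Cebpb was -0.60 with an SE of 0.182 (adjusted P = 0.0791). Cebpb shares 312 of its 1504 exonic bases with Tmem189 and Cebpd 562 of 3746 with Spidr, both on the opposite strand, and whether counting used strand is not given in the sources used here.

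Cdkn1a encodes p21, an inhibitor of cyclin-dependent kinases that is induced by p53, by glucocorticoids, and by loss of nerve supply to muscle. Its level was 36.5, 58.5, 59.5, and 49.4 CPM in the control mice and 20.1, 18.0, 19.2, and 17.0 CPM in the HFD mice. The HFD mice lay close together, and every control mouse lay above them. The log2FC was -1.45 with an SE of 0.412 (adjusted P = 0.068).

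Mt1 and Mt2 lie in tandem on the plus strand of chromosome 8, Mt2 at 94172664 to 94173568 and Mt1 at 94179082 to 94180327, with 5513 bases between them. Mt1 was at 10.4, 25.6, 34.2, and 23.9 CPM in the control mice and at 6.58, 2.83, 4.73, and 7.21 CPM in the HFD mice, so that the groups did not overlap. The log2FC of Mt1 was -2.14 with an SE of 0.558 (adjusted P = 0.0573), the largest fitted difference and the lowest adjusted P of the 10 genes in this comparison. Mt2 was at 2.70, 5.12, 6.61, and 9.31 CPM in the control mice and at 1.99, 1.29, 1.68, and 3.44 CPM in the HFD mice. Control replicate 1, the lowest control mouse for both genes, fell inside the HFD range for Mt2. The log2FC of Mt2 was -1.50 with an SE of 0.578 (adjusted P = 0.136). Mt2 had the fewest counts of the panel, 31 to 236 per mouse, and 73.5% of its exonic bases are shared with the antisense gene Gm45774, whose row in the lncRNA table held 0 to 11 counts.

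Sequences upstream of both metallothionein genes are shown, searched for the core of the metal response element, the DNA site of Mtf1. A link between these letters and the levels of the genes was not tested. The letters before the RefSeq start sites were taken from the GRCm38.p6 promoter table, and capitals mark the cores TGCACNC or TGCGCNC on either strand. Of the 32851 promoters in the table, 21.4% hold such a core in the 250 bases before the start, and of the 16 windows of the panel 2 do. Matches are a description of the letters and not of a bound site.
Mt2, chr8:94172368-94172617, plus strand, 250 bases: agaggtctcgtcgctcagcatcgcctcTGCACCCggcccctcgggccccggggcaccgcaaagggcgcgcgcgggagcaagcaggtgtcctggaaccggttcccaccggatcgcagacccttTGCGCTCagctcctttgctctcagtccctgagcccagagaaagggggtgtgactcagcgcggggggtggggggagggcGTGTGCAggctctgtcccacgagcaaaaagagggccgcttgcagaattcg
Mt1, chr8:94178839-94179081, plus strand, 243 bases up to the first annotated exon: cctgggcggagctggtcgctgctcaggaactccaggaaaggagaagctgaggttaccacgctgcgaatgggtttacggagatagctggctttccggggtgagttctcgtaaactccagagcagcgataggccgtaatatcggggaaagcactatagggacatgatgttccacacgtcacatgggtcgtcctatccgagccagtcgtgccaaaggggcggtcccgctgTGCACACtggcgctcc
The Mt2 window holds 3 cores and the Mt1 window holds 1. Other deposited Mt1 transcripts start farther downstream, at 94179211 and 94179241, and the letters between the Mt1 window and those starts were not searched. The Mt2 window and a Sgk1 window also hold the C/EBP letters TTGC and AA with any 2 bases between them (9.56% of all promoters). The Fkbp5 window and a Sgk1 window hold the E-box CACGTG (6.02%), searched like the others on both strands. The half-site AGAACA of the glucocorticoid response element was found for Sgk1 and Tsc22d3 (16.1% of all promoters) and is not among the letters of these windows of Mt1 and Mt2. All 250 bases of the Mt2 window also lie in an annotated exon of Gm45774.

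The remaining 4 genes had fitted levels within 1.25-fold of each other in the control and HFD groups. Tsc22d3 encodes GILZ, a leucine zipper protein that carries much of the anti-inflammatory action of glucocorticoids, and Klf9 encodes a zinc finger repressor that the receptor induces directly. Klf9 was at 181 to 239 CPM in the control mice and 167 to 189 CPM in the HFD mice, which overlapped. Its log2FC was -0.26 with an SE of 0.105 (edgeR unadjusted P = 0.0251, adjusted P = 0.149). Tsc22d3 was at 78.2 to 119.7 CPM in the control mice and 75.1 to 100.4 CPM in the HFD mice, with a log2FC of -0.22 (95% interval -0.61 to 0.18). Zbtb16, which encodes the transcription factor PLZF, was at 272 to 402 CPM in the control mice and 234 to 296 CPM in the HFD mice, with a log2FC of -0.32 (95% interval -0.69 to 0.05). It is among the genes that glucocorticoids induce most strongly in many cell types. Sgk1 encodes a kinase that acts beside AKT downstream of insulin and is induced by glucocorticoids and mineralocorticoids. It was at 118 to 198 CPM in the control mice and 115 to 209.6 CPM in the HFD mice, with a log2FC of 0.04 (95% interval -0.48 to 0.56).

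Of the 16 windows of 250 bases searched, 1 holds the full palindrome, and it is 1 of 6 windows of Sgk1. The other genes had 0 to 3 windows each, so the search was not equal between genes. The window shown ends at the start of ENSMUST00000092673, the transcript that carried a median of 81.8% of the Sgk1 counts, and capitals mark the glucocorticoid response element palindrome, searched as AGAACA and TGTTCT with any 3 bases between them, which reads the same on both strands.
Sgk1, chr10:21993640-21993889, plus strand, 250 bases: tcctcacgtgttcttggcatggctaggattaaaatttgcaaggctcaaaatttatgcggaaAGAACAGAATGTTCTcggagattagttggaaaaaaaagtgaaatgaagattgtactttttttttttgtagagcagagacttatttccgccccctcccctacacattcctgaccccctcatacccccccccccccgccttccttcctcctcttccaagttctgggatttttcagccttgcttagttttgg
The palindrome starts 189 bases before the start site, and 3 of the 32851 promoters (0.00913%) hold it in this window. The promoter table gave 16 windows for 8 of the 10 genes, and Cebpd and Zbtb16 were not matched.

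The number of genes of the panel that passed in this comparison differed between fits. In the 12 mice without the HFD + MET group, 6 of the 10 genes passed an adjusted P below 0.05, all lower in the HFD group (5.81% of all genes were), namely Fkbp5, Cebpb, Cebpd, Mt1, Mt2, and Cdkn1a. In the fit of the 8 control and HFD mice alone, Fkbp5, Mt1, and Cdkn1a passed, against 3.71% of all genes lower. DESeq2 on the same 16 mice passed 5 genes, Fkbp5, Cebpb, Cebpd, Mt1, and Cdkn1a, against 4.88% of all genes lower. Leaving out HFD + MET replicate 3 alone passed 5 genes, Fkbp5, Cebpd, Mt1, Mt2, and Cdkn1a, against 5.19% of all genes lower, with adjusted P-values from 0.00283 (Cdkn1a) to 0.0365 (Cebpd). In this last fit the log2FC of Mt1 was again -2.14, with an SE of 0.394 in place of 0.558, and that of Cdkn1a was -1.46, with an SE of 0.201 in place of 0.412. Without the 2 mice of highest white adipocyte sum, control replicate 3 and HFD + MET replicate 3, Fkbp5 (log2FC -1.75), Mt1 (log2FC -1.91), and Cdkn1a (log2FC -1.38) passed, against 1.9% of all genes lower. The white adipocyte sums of the control and HFD mice did not overlap, as given above, and its part in the differences of the 10 genes was not tested.

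**Figure D2:**
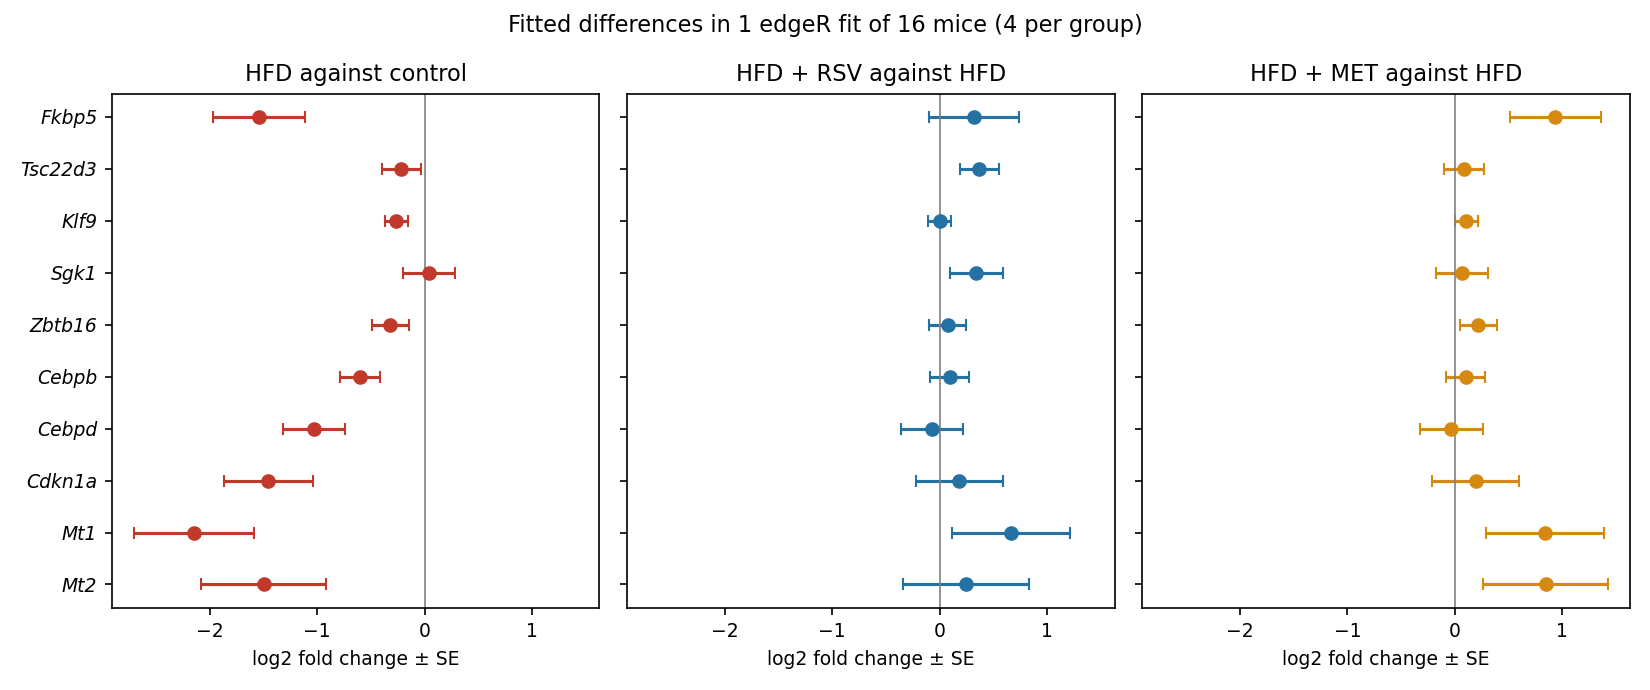
Points are the log2 fold changes of the 10 genes in 3 comparisons from 1 fit of 16 mice, and bars are their SE. In the left panel Mt1 lies at -2.14 and Fkbp5 at -1.54, in the middle panel the values run from -0.07 (Cebpd) to 0.67 (Mt1), and in the right panel from -0.03 (Cebpd) to 0.93 (Fkbp5).

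Treatment with RSV was compared with HFD alone to ask whether it moved these genes back. No gene of the panel passed in this comparison at an adjusted P (0% of all genes did), and none passed at an unadjusted P below 0.05, which 4.72% of all genes did. Mt1 was at 6.44, 12.7, 5.10, and 9.57 CPM in the HFD + RSV mice, a log2FC of 0.67 against the HFD group with an SE of 0.548 (95% interval -0.51 to 1.84). The HFD + RSV mice overlapped the HFD mice and, through replicate 2, also the lowest control mouse. Cdkn1a was at 19.4, 16.8, 22.9, and 25.4 CPM in the HFD + RSV mice, with a log2FC of 0.18 (95% interval -0.69 to 1.05). Every HFD + RSV mouse stayed below every control mouse for this gene. Fkbp5 was at 49.6, 16.7, 39.6, and 40.1 CPM, with a log2FC of 0.32 (95% interval -0.58 to 1.22). The intervals of Mt1 and Fkbp5 are wide enough to hold both no difference and most of the difference between the HFD and control groups.

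Tsc22d3 was the gene of the panel that separated the HFD + RSV mice from the HFD mice. It was at 112, 121, 107, and 118 CPM in the HFD + RSV mice against 100.4, 82.1, 96.8, and 75.1 CPM in the HFD mice. The groups did not overlap, a pattern that 1.88% of all genes showed in this direction, and the exact permutation test gave its smallest possible two-sided P of 0.0286. In the edgeR fit the log2FC of 0.37 had an SE of 0.184 and did not pass (adjusted P = 0.999). Sgk1 was at 155 to 278 CPM in the HFD + RSV mice, with a log2FC of 0.34 (95% interval -0.18 to 0.86).

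Compared with the control group, the HFD + RSV group had no gene of the panel past the adjusted threshold (0.00651% of all genes passed). At an unadjusted P below 0.05, 7 genes passed and all were lower in the HFD + RSV group, against 7.98% of all genes. They were Fkbp5, Klf9, Cebpb, Cebpd, Mt1, Mt2, and Cdkn1a, with log2FC values from -0.26 (Klf9) to -1.48 (Mt1). The highest HFD + RSV mouse lay below the lowest control mouse for Cebpb, Cebpd, and Cdkn1a, which 5.88% of all genes showed. This comparison and the first share the 4 control mice, so their likeness is no second observation.

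Metformin was the other treatment, and here the mice of 1 group disagreed with each other. No gene of the panel passed an adjusted P against the HFD group (0.013% of all genes did). Fkbp5 was the only one to pass at an unadjusted P below 0.05, higher in the HFD + MET group, with 5.23% of all genes higher at that threshold. Its level was 31.6, 35.8, 100.3, and 55.6 CPM in the 4 mice, a log2FC of 0.93 with an SE of 0.422 (edgeR adjusted P = 0.618). Replicates 1 and 2 lay inside the HFD range, and replicates 3 and 4 lay above it. In replicates 2 and 3 most Fkbp5 counts were assigned to another transcript than in the other mice, as given below. ENSMUST00000079413, the transcript with the highest median share of Fkbp5 counts, had a log2FC of 0.28 against the HFD group with an SE of 0.542.

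Mt1 was at 6.87, 4.27, 23.1, and 3.92 CPM in the HFD + MET mice, Mt2 at 2.14, 1.35, 9.97, and 1.62 CPM, and Cdkn1a at 12.6, 15.6, 49.0, and 7.83 CPM. In each case replicate 3 lay in the range of the control mice or above it, and the other 3 mice lay inside or below the range of the HFD mice. With all 4 mice the log2FC against the HFD group was 0.84 for Mt1, 0.84 for Mt2, and 0.19 for Cdkn1a. Without replicate 3 the values turned to -0.10, -0.31, and -0.63, and that of Fkbp5 was 0.49, and none passed an adjusted P in either fit. Replicate 3 had the high white adipocyte sum given above, and the part of that sum in its values was not tested. Its Tsc22d3 level of 58.5 CPM was the lowest of the 16 mice.

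Against the control group, the HFD + MET group had no gene of the panel past the adjusted threshold (0% of all genes passed). At an unadjusted P below 0.05, Cebpb, Cebpd, Mt1, and Cdkn1a were lower, against 4.15% of all genes. Cebpd was at 30.3, 18.4, 42.4, and 34.6 CPM in the HFD + MET mice, below every control mouse, as were 1.57% of all genes, with a log2FC of -1.06 and an SE of 0.291 (adjusted P = 0.252). Without HFD + MET replicate 3, Mt1 (log2FC -2.24, adjusted P = 0.0374), Mt2 (log2FC -1.81, adjusted P = 0.0481), and Cdkn1a (log2FC -2.09, adjusted P = 0.00528) passed, against 0.54% of all genes lower. The direct comparison of the treated groups passed no gene of the panel at an adjusted P (0% of all genes) and none at an unadjusted P below 0.05 (4.68% of all genes). The test of any difference among the 4 groups also passed none of the 10 genes, with 0.117% of all genes passing, and its lowest adjusted P in the panel was 0.149 for Cebpd.

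Levels were compared between genes per length, as FPKM (counts scaled to transcript length and library size) averaged over the 16 mice. Sgk1 was the highest at 90.1 FPKM, followed by Zbtb16 at 63.0, Klf9 at 51.3, and Tsc22d3 at 41.4. The genes with the larger differences between groups were lower, with Cebpb at 17.3, Mt1 at 17.2, Fkbp5 at 14.6, Cdkn1a at 13.9, Cebpd at 9.65, and Mt2 at 6.38 FPKM. Across mice, the highest level exceeded the lowest 12.1-fold for Mt1, 7.73-fold for Mt2, 7.59-fold for Cdkn1a, and 6.73-fold for Fkbp5 on the CPM scale. The same range was 1.45-fold for Klf9 and 1.90-fold for Zbtb16.

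Mt1 and Mt2 followed each other from mouse to mouse. After the group means were subtracted from log2 CPM, Pearson's r between them was 0.907 over the 16 mice (P = 0.000404, adjusted over 45 pairs 0.0182) and Spearman's rho was 0.906 (adjusted P = 0.00692), by exact permutation of mice within groups. Without HFD + MET replicate 3 and control replicate 1, which lay farthest from the median of Mt1, r was 0.807. It was the only pair of the 45 to pass by r. The next was Fkbp5 and Sgk1, with r = -0.741 (adjusted P = 0.121) and rho = -0.782 (adjusted P = 0.0407) by the same exact permutation test, so that mice with more Fkbp5 than their group had less Sgk1. Of the 45 pairs, 25 had a positive r.

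**Figure D3:**
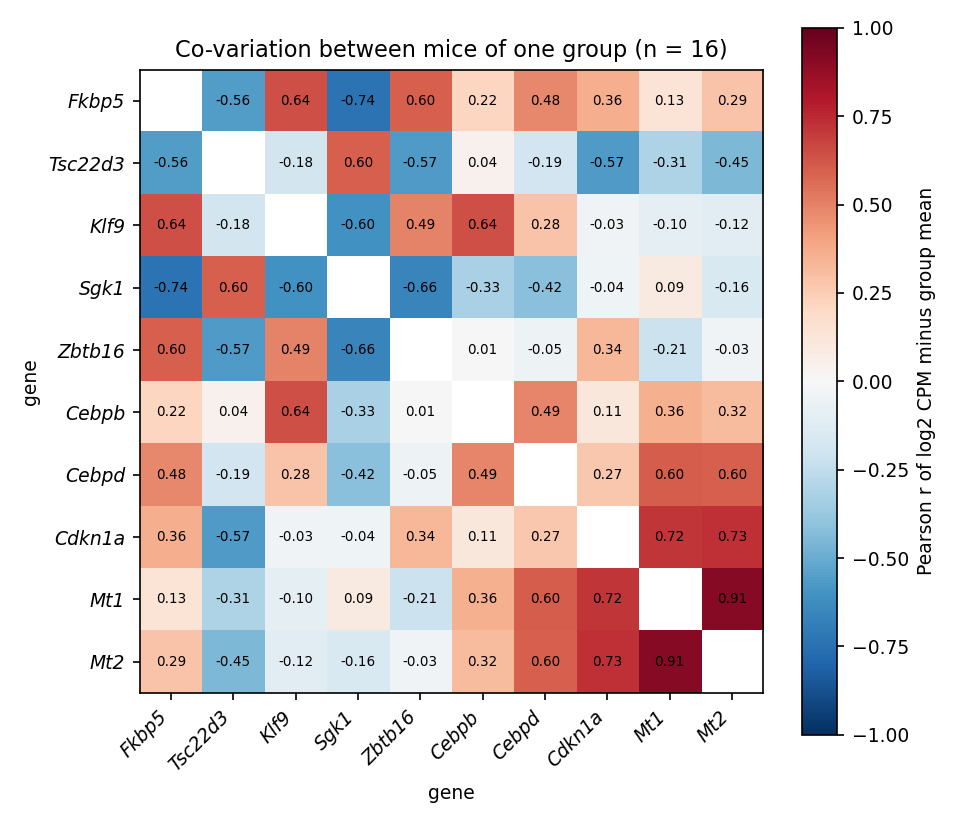
The grid gives Pearson's r between each pair of genes over 16 mice, from log2 CPM with group means subtracted (red, positive; blue, negative). The Mt1 and Mt2 cell holds 0.91 and the Fkbp5 and Sgk1 cell holds -0.74.

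Over all 16 mice and with group differences left in, Mt1 was also the gene most like Mt2 among 15363 genes (r = 0.93). It was followed by Il6ra, which encodes the interleukin 6 receptor (r = 0.92), Orc6 (r = 0.92), Efnb1 (r = 0.90), and Mkrn1 (r = 0.90). The genes most like Fkbp5 were Setd1b (r = 0.87), Nox4 (r = 0.86), Ccdc77 (r = 0.85), Galnt15 (r = 0.84), and Xpc (r = 0.84), and the nearest gene of the panel was Klf9, at rank 17 with r = 0.80. These correlations are descriptions over 16 mice that share group differences and tissue makeup.

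**Figure D4:**
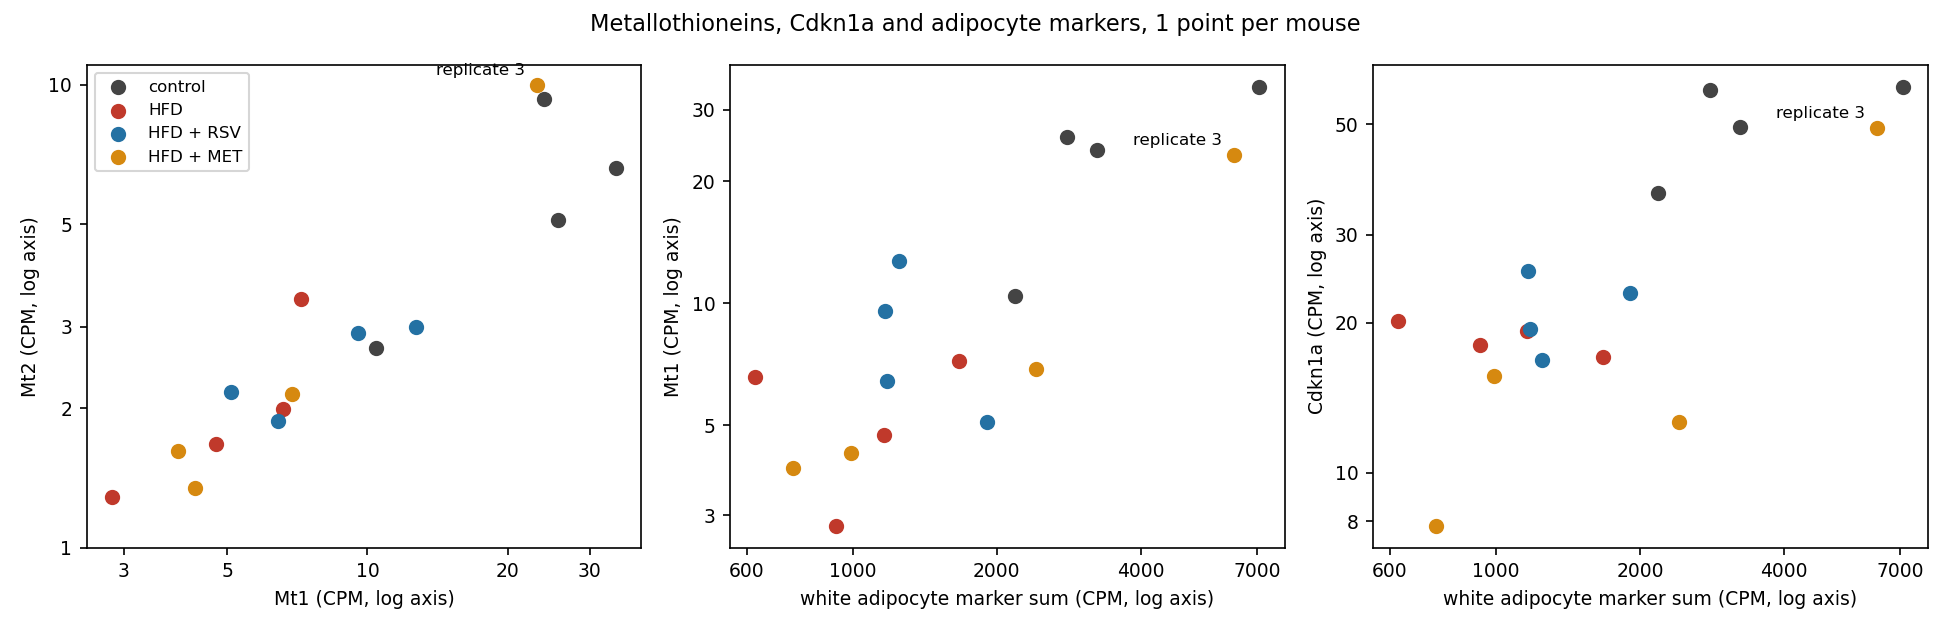
Each point is 1 mouse on log axes, with Mt2 against Mt1 in the left panel and Mt1 and Cdkn1a against the summed CPM of 8 white adipocyte markers in the middle and right panels. Replicate 3 of the HFD + MET group, at 23.1 CPM of Mt1 and 49.0 CPM of Cdkn1a, lies near the control mice in all 3 panels.

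The deposited table divides the 10 genes into 37 transcripts, of which 30 passed the filter. None passed an adjusted P for HFD versus control (0.0157% of all transcripts did), for HFD + RSV versus HFD (0%), or for HFD + MET versus HFD (0.00449%). Klf9 and Cebpb have a single deposited transcript each. Tsc22d3 divided its counts among ENSMUST00000055738 (median share 48.2%), ENSMUST00000133023 (35.1%), and ENSMUST00000112996 (15.7%), and Zbtb16 divided its counts between ENSMUST00000093852 (71.5%) and ENSMUST00000216150 (28.5%). StringTie shares out fragments among overlapping transcripts, so these shares are estimates.

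The transcript that held most Fkbp5 counts was another one in 2 mice. ENSMUST00000079413, which spans 28399095 to 28486149 on chromosome 17, carried a median of 89.7% of the Fkbp5 counts. In HFD + MET replicates 2 and 3 its share was 35.5% (95% Wilson interval 32.5% to 38.6%) and 34.1% (32.2% to 36.0%). The counts there went to ENSMUST00000114792, which spans 28399097 to 28517524 and so starts 31375 bases farther upstream on the minus strand. That transcript had 522 and 1346 counts in these mice, 54.7% (51.5% to 57.8%) and 56.7% (54.7% to 58.7%) of the gene. In the other 14 mice it had 2 to 8 counts, at most 1.57% of the gene. In HFD + RSV replicate 2, the mouse with the lowest Fkbp5 count, ENSMUST00000079413 carried 43.0% (38.2% to 48.0%) of 386 counts. The intervals cover counting error only, and ENSMUST00000114792 did not pass the filter for testing, with 2 to 8 counts in 14 of the 16 mice.

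**Figure D5:**
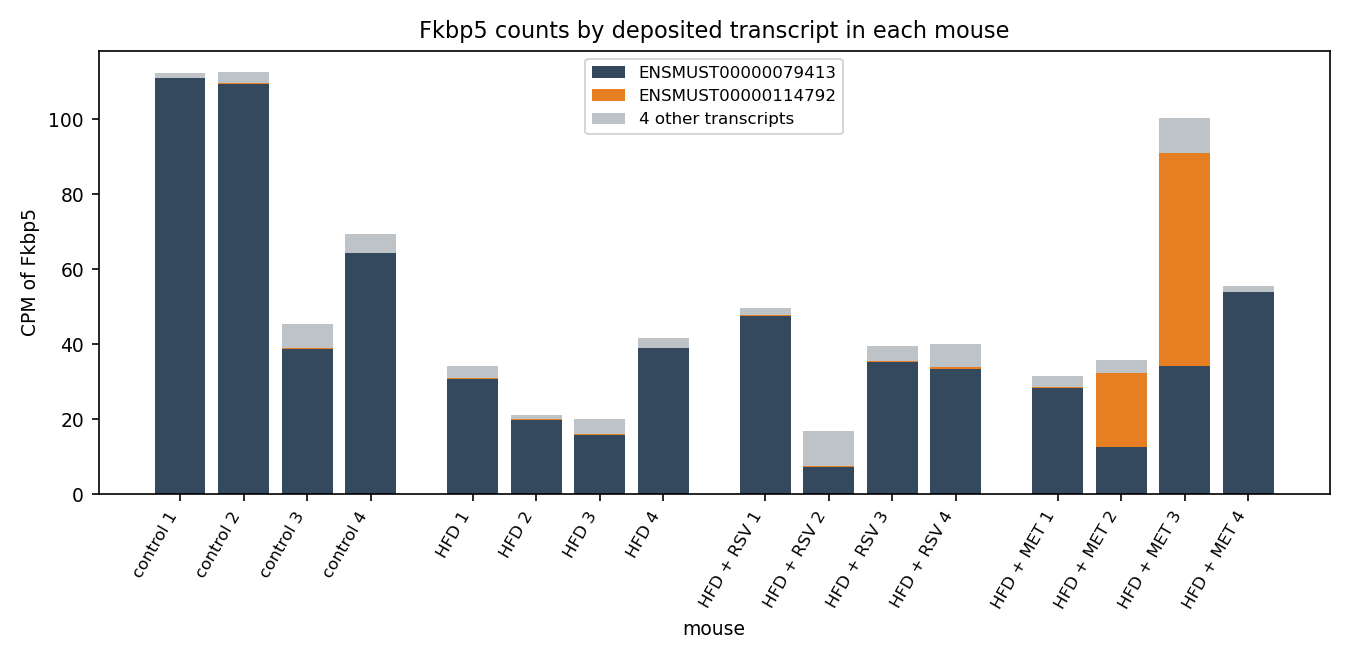
Stacked bars give the CPM of Fkbp5 in each of 16 mice, divided by deposited transcript. ENSMUST00000114792 is visible as a large block only in HFD + MET replicates 2 and 3, where it holds 54.7% and 56.7% of the counts.

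The lncRNA table has 15 rows that lie inside the span of a gene of the panel, 8 in Fkbp5, 3 in Zbtb16, 2 in Tsc22d3, and 1 each in Klf9 and Cdkn1a. Of the 11 rows that passed the filter, none passed an adjusted P for HFD versus control (1.61% of all lncRNA rows did), for HFD + RSV versus HFD (0.0114%), or for HFD + MET versus HFD (0%). NONMMUT069015.2, inside Zbtb16 at 48694477 to 48697630 on chromosome 9, had 119, 378, 408, and 449 counts in the control mice and 837, 1084, 798, and 698 counts in the HFD mice. The log2FC of this row was 1.45 (edgeR adjusted P = 0.0725), while that of Zbtb16 itself was -0.32 (95% interval -0.69 to 0.05). The 5 tested rows inside Fkbp5 had log2FC values from -1.58 to -1.18, with SE values from 0.697 to 0.808. None passed at an edgeR unadjusted P below 0.05 (0.0517 to 0.139). Control replicate 1 had 17 to 32 counts in these rows, inside or below the range of the HFD mice, although its Fkbp5 level was 112 CPM. NONMMUT074090.2, a row of 1082 bases at the 3' end of Tsc22d3, had 2776 counts in control replicate 1 and 13 to 18 in the other 15 mice. Control replicate 1 also had the lowest Tsc22d3 level of its group, 78.2 CPM from 1392 counts, and how fragments were divided between these rows was not tested.

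The receptor and its partners were examined beside the panel. Nr3c1, the gene of the glucocorticoid receptor, was at 59.2 to 97.4 CPM in the control mice and 75.3 to 80.8 CPM in the HFD mice, with a log2FC of 0.07 and an SE of 0.155 (adjusted P = 0.807). Hsd11b1 encodes the enzyme that regenerates active glucocorticoid from its inactive form inside cells, and it was the gene of this list that passed in HFD versus control. It was at 30.6, 19.9, 42.2, and 18.2 CPM in the control mice and at 6.75, 5.86, 7.03, and 5.88 CPM in the HFD mice. The groups were far apart, and the lowest control mouse had more than the highest mouse of any other group. The log2FC was -2.12 with an SE of 0.246 (adjusted P = 0.0057), and Hsd11b1 also passed the test of any difference among the 4 groups (adjusted P = 0.0122). It was at 7.65 to 11.1 CPM in the HFD + RSV mice and 7.19 to 12.0 CPM in the HFD + MET mice. Hsd11b1 is also expressed in adipocytes, whose summed markers did not overlap between control and HFD mice, as given above, and their part in its difference was not tested. It passed for HFD versus control with each of the 16 mice left out in turn (highest adjusted P = 0.0209). Of 10 tested genes of the receptor machinery, Hsd11b1 alone fell and none rose in the HFD group at the adjusted threshold, which 1.11% of all genes passed as lower and 1.32% as higher. Their median log2FC was 0.11, against -0.02 for all genes. Higher values that did not pass were found for the chaperone genes Fkbp4 (log2FC 0.33, adjusted P = 0.0791) and Stip1 (log2FC 0.36, adjusted P = 0.102) and for the mineralocorticoid receptor gene Nr3c2 (log2FC 0.37, adjusted P = 0.168).

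Among 22 other glucocorticoid-induced genes, all of which were tested, 3 fell and none rose in the HFD group at the adjusted threshold (1.11% of all genes fell). They were Ddit4 (log2FC -2.48, adjusted P = 0.0336), an inhibitor of mTORC1, Rhob (log2FC -0.98, adjusted P = 0.0384), a small GTPase, and Nfkbia (log2FC -0.88, adjusted P = 0.0446), the inhibitor of NF-kappa B, which was named after its values were seen. The median log2FC of the list was -0.60, against -0.02 for all genes, and 10 of the 22 were lower at an unadjusted P below 0.05, against 12.5% of all genes. With single mice left out, Ddit4 passed in 9 of 16 fits, Rhob in 7, and Nfkbia in 5, and each was lost without control replicate 2, 3, or 4 and without any 1 of the HFD mice. Ddit4 was at 34.8, 100.2, 129, and 161 CPM in the control mice and at 28.7, 13.1, 18.0, and 16.3 CPM in the HFD mice. Control replicate 1 was again the lowest of its group, as it was for Mt1, Mt2, Cdkn1a, and Cebpd. Glul, which makes glutamine and is a classic glucocorticoid target in muscle, had a log2FC of -1.43 (adjusted P = 0.068), and Errfi1, an inhibitor of the EGF receptor, had -0.78 (adjusted P = 0.0573). None of the 22 passed an adjusted P for HFD + RSV or HFD + MET versus HFD. At an unadjusted P below 0.05, 4 were higher in the HFD + RSV mice, against 2.82% of all genes, among them Ddit4, at 24.6, 48.1, 34.2, and 75.9 CPM (log2FC 1.26, SE 0.492, adjusted P = 0.999).

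Zinc and copper handling was examined because metallothioneins answer to metals. Mtf1, the metal sensor, was at 6.82 to 11.3 CPM in the control mice and 9.88 to 12.5 CPM in the HFD mice (log2FC 0.30, adjusted P = 0.518), and reached 25.6 CPM in HFD + MET replicate 3. Of 21 tested genes, 1 rose and none fell in the HFD group at the adjusted threshold (1.32% of all genes rose and 1.11% fell), with a median log2FC of -0.25. The gene that rose was the zinc exporter gene Slc30a4 (log2FC 0.41, adjusted P = 0.0474), which passed in 5 of the 16 fits with 1 mouse left out. Slc30a2, another zinc transporter gene, had a log2FC of -1.57 (adjusted P = 0.0604), and was at 9.58 to 20.1 CPM in the control mice and 2.92 to 9.23 CPM in the HFD mice. The importer gene Slc39a14 had a log2FC of -0.39 (adjusted P = 0.058) and Slc30a7 one of -0.34 (adjusted P = 0.106). Mt3, the third metallothionein in the table, was near its limit of detection, at 0.67 to 1.09 CPM in the control mice and 0.25 to 0.64 CPM in the HFD mice (log2FC -1.10, adjusted P = 0.104). At an unadjusted P below 0.05, 9 of the 21 genes were lower in the HFD group (12.5% of all genes) and 5 were higher. In either direction, 3715 of all 15364 genes passed. None of the 21 passed an adjusted P for HFD + RSV versus HFD. At an unadjusted P below 0.05, 3 were higher in the HFD + RSV mice, against 2.82% of all genes, and none lower. The 3 were Slc30a2 (log2FC 1.67), Mt3 (log2FC 1.26), and Slc30a7 (log2FC 0.35).

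Other regulators of the panel gave few calls, to be read against the 1.11% of all genes that fell and the 1.32% that rose. Of 14 p53 target genes, 1 fell in the HFD group, Btg2 (log2FC -1.30, adjusted P = 0.0369), an antiproliferative gene that is also an immediate early gene, while Trp53inp1 (log2FC -0.68, adjusted P = 0.0676) and Sesn2 (log2FC -1.49, adjusted P = 0.104) did not pass. These were the 3 of the 14 that were lower at an edgeR unadjusted P below 0.05, and 1 other was higher. The median log2FC of the 14 was -0.12, against -0.02 for all genes, so the list did not fall as a whole. Of 8 tested genes of the interleukin 6 and STAT3 response, none passed in either direction, with Socs3 (log2FC 1.43, adjusted P = 0.0604) and Il6ra (log2FC -1.17, adjusted P = 0.0801) on opposite sides. Of 17 circadian clock genes, which glucocorticoids help to set, 1 rose in the HFD group, Dbp (log2FC 1.58, adjusted P = 0.0478), and the sources used here do not give the time of day at which each mouse was killed. Npas2 had a value of the opposite sign (log2FC -1.24, adjusted P = 0.0534). At an edgeR unadjusted P below 0.05, 5 of the 17 were higher and 1 was lower. Of 15 immediate early genes, Btg2 fell in the HFD group. At an unadjusted P below 0.05, 8 of the 15 were lower, against 12.5% of all genes, and 1 was higher, Nr4a3. With 1 mouse left out, Btg2 passed in 8 of 16 fits and Dbp in 4, and both were lost without control replicate 2, 3, or 4 and without any 1 of the HFD mice. Nr4a3, an orphan nuclear receptor gene that exercise and stress induce, passed the test of any difference among the 4 groups (adjusted P = 0.0183). It did so in 11 of the 16 fits with 1 mouse left out. Its level was 6.24 to 10.7 CPM in the control mice and 8.50 to 35.2 CPM in the HFD mice (log2FC 1.41, edgeR adjusted P = 0.0556). The HFD + RSV mice were at 4.57 to 12.2 CPM and the HFD + MET mice at 2.48 to 2.88 CPM. In HFD + MET versus HFD, 1 of the 15 immediate early genes fell at the adjusted threshold, which 0.013% of all genes passed. Of 12 tested paralogues of the panel, none passed in the HFD group, and Cebpg, a C/EBP partner, had a log2FC of -0.38 (adjusted P = 0.0868).

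Marker genes of other cells and fibres were examined in the same comparison, in which 12.5% of all genes were lower at an unadjusted P below 0.05. None of the 7 slow fibre markers passed an adjusted P for HFD versus control, while all 7 were lower at an unadjusted P below 0.05, with a median log2FC of -3.55. The slow fibre sum was 93.6, 2313, 1036, and 1511 CPM in the control mice and 134, 118, 270.2, and 97.9 CPM in the HFD mice. Control replicate 1 was below every HFD mouse in this sum, whereas the other control mice were above all of them. Of 6 brown adipocyte markers (median log2FC -3.73), 2 fell, Cidea and Elovl3, which passed in 4 and 10 of the 16 fits with 1 mouse left out, whereas Cox8b (log2FC 0.32) and Ppargc1a (log2FC 0.25) had values of the opposite sign. The brown adipocyte sum was 193, 227, 889, and 137 CPM in the control mice and 95.1 to 176 CPM in the HFD mice, and control replicate 3 had the highest sum of all 16 mice. Of 8 white adipocyte markers none passed and 4 were lower at an unadjusted P below 0.05 (median log2FC -1.90), whereas Lep had a value of the opposite sign (log2FC 1.40). Lpl (mean 1618 CPM in control and 585 CPM in HFD mice) and Fabp4 (990 and 261 CPM) were the largest parts of the white adipocyte sum. Of 7 Schwann cell and 8 endothelial markers none passed, and 4 of each list were lower at that threshold. The macrophage, fibroblast, erythroid, and satellite cell lists passed no gene either, and no neutrophil marker had enough counts to be tested. The part of these marker genes in the differences of the panel was not tested.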

How the data were processed

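The authors prepared libraries with a TruSeq RNA kit after Ribo-Zero depletion and sequenced paired ends. Per the labels they used fastp and HISAT2 with GRCm38, and per the methods StringTie gave the values. The deposited tables hold expected counts and FPKM per transcript and mouse, made by the authors. Strand use in counting is not given in the sources used here. Columns of the authors' comparisons were not used.

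Deposited counts, rounded to whole numbers, were summed by gene name. Genes were filtered by filterByExpr (minimum count 10, minimum total 15) and TMM-normalised, and tested in edgeR 4.0.16 (R 4.3.3) by the robust quasi-likelihood test in 1 fit of 16 mice, with Benjamini-Hochberg adjustment over 15364 genes and a threshold of 0.05. CPM used TMM library sizes, and the common biological coefficient of variation was 0.261. Permutation tests were exact and two-sided. The 10 genes, the gene lists, and the tests were chosen with earlier results of these data known. Genes named from a list were up to 4 per list with the smallest P in the test among the 4 groups, plus Nr3c1, Mtf1, and the 5 genes most like Fkbp5 and Mt2. Alternatives were RLE factors, DESeq2 1.42.0, no filter, fewer groups, the study's rule, and leaving out each mouse. The scripts were tested on simulated data.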

Additional observations from a re-analysis of the deposited data

How the results depend on the processing

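No paired analysis was possible because no replicate number is shared by design between groups. In the text, called means an adjusted P below 0.05, and the edgeR fit of all 16 mice called 0 of the 10 genes in each comparison. RLE factors and no filter on low counts also called 0. For HFD versus control, 6 genes were called in 12 mice without metformin, 3 in the 2 groups alone, 5 by DESeq2, 5 by the study's rule (unadjusted P below 0.05 and log2FC beyond 1), 7 by unadjusted P, and 0 to 5 when single mice were left out (1 without control replicate 1, 5 without HFD + MET replicate 3, 2 without HFD + MET replicate 4, 0 otherwise). Of all genes, 1616 of 15097 were called in 12 mice and 998 of 14816 in the 2 groups. DESeq2 called 1544 and unadjusted P 3715 of 15364. Without control replicate 1, 773 of 15605 genes were called. Without HFD + MET replicate 3 or 4, 1588 of 15565 or 644 of 15591 were called. Leaving out the 2 mice with the highest white adipocyte sums was chosen after seeing the data and called 3, and 555 of all 15499 genes. For HFD + MET versus HFD, unadjusted P called 1, and 1232 of all 15364 genes. For HFD + RSV versus control, 12 mice without metformin, DESeq2, and the 2 mice left out each called 1, the study's rule 5, unadjusted P 7, and single mice left out 0 to 1 (1 without HFD + MET replicate 3). Of all genes, the first 3 of these fits called 231 of 15097, 376 of 15364, and 53 of 15499. Unadjusted P called 2424 of 15364, and the fit without HFD + MET replicate 3 called 261 of 15565. For HFD + MET versus control, DESeq2 and the 2 mice left out each called 1, the study's rule 3, unadjusted P 4, and single mice left out 0 to 3 (3 without HFD + MET replicate 3). Of all genes, DESeq2 called 146 of 15364, and the fit with the 2 mice left out 38 of 15499. Unadjusted P called 1459 of 15364, and the fit without HFD + MET replicate 3 called 180 of 15565. The test among 4 groups called 4 by DESeq2, 1 with the 2 mice left out, and 0 to 3 with single mice left out (3 without HFD + MET replicate 3). How many of all genes the study's rule and these fits of the 4-group test called is not given here. With log2 FPKM plus 0.1, 2 pairs of genes co-varied. The causes were not tested.

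Some uncalled log2FC values changed sign. For Klf9 in HFD + RSV versus HFD the value was 0.0015 in 12 mice, 0.0090 in the 2 groups alone, and 0.0084 with the 2 mice left out. With these 2 left out, HFD + MET versus HFD gave -0.10 for Mt1, -0.31 for Mt2, and -0.63 for Cdkn1a, HFD + MET versus control gave 0.12 for Tsc22d3, and HFD + RSV versus HFD + MET gave 0.063 for Cebpb, 0.15 for Cebpd, 0.77 for Mt1, 0.56 for Mt2, and 0.82 for Cdkn1a, the last being 0.0017 without a filter. With single mice left out, HFD versus control ran from -0.093 to 0.20 for Sgk1. HFD + RSV versus HFD ran from -0.034 to 0.027 for Klf9, -0.31 to 0.21 for Cebpd, and -0.095 to 0.18 for Zbtb16. HFD + MET versus HFD ran from -0.065 to 0.25 for Tsc22d3, -0.11 to 0.19 for Sgk1, -0.026 to 0.23 for Cebpb, -0.27 to 0.25 for Cebpd, -0.10 to 1.10 for Mt1, -0.31 to 1.18 for Mt2, and -0.63 to 0.47 for Cdkn1a. HFD + MET versus control ran from -0.28 to 0.038 for Tsc22d3, -0.070 to 0.23 for Sgk1, and -0.23 to 0.025 for Zbtb16. HFD + RSV versus HFD + MET ran from -0.13 to 0.12 for Cebpb, -0.23 to 0.14 for Cebpd, -0.44 to 0.76 for Mt1, -0.88 to 0.56 for Mt2, and -0.29 to 0.81 for Cdkn1a. Mt2 had 31 to 236 counts per mouse, the fewest of the 10 genes.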
